A study of Canis lupus familiaris with 13 samples.

Results

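The transcripts described here are 7 that are known mainly from neutrophils and red blood cells: S100A8, S100A12 and CSF3R from neutrophils, and ALAS2, HBM, GYPC and SLC25A37 from the red cell lineage. They were chosen by symbol, 1 gene each, out of 30951 genes in the deposited count table, with earlier results of these data known. Each of the 7 symbols named a single gene. All 7 were among the 14629 genes that passed the filter on low counts. The tissue was muscle of the thigh, the biceps femoris, biopsied under local anaesthesia from 4 wild-type dogs aged 9 to 10 months and sequenced as RNA. Of the 13 libraries 10 were labelled insulin-stimulated: each dog gave a sample 1 and a sample 2 (n = 4 each), and dogs 1 and 2 also gave a sample 3 (n = 2). The 3 basal libraries were the sample 0 of dogs 2, 3 and 4, so dog 1 had none. The labels do not say what the sample numbers stand for, nor what agent, dose or time the stimulation was. The 13 libraries are repeat biopsies of 4 animals.

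Neutrophils are short-lived white cells of the blood that enter tissue at sites of injury. They hold large amounts of the calcium-binding S100 proteins: S100A8 forms calprotectin with S100A9, and S100A12 is a related alarmin. CSF3R is the receptor for granulocyte colony-stimulating factor, which drives neutrophil production and release. Mammalian red cells have no nucleus, and their RNA is left over from the erythroblast and is richest in young cells, the reticulocytes. ALAS2 is the erythroid form of the first enzyme of heme synthesis, and HBM is a member of the alpha-globin family. GYPC, a glycophorin, anchors the membrane skeleton of the red cell, and SLC25A37 (mitoferrin 1) carries iron into mitochondria. GYPC and SLC25A37 are also expressed outside the red cell lineage, and monocytes express S100A8, S100A12 and CSF3R too. A muscle biopsy holds the blood that was in its vessels and any that bled into it, so these transcripts bear on the blood cell content of the samples. In such bulk samples fewer cells of a type and less RNA per cell cannot be told apart.

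Library totals ranged from 45200416 to 81948641 counts. The skeletal muscle actin ACTA1 took between 10.4% and 18.4% of the counts of a library, so the libraries carry the labelled tissue's main marker. Levels are given as CPM, the count scaled to a common library size that was adjusted by the trimmed mean of M values (TMM). CPM is not adjusted for transcript length, so levels are compared between libraries and not between genes. A count of 3 corresponds to between 0.0401 and 0.0693 CPM in these libraries. Several other marker genes of the same cells had few counts. CXCR2, a chemokine receptor of neutrophils, averaged 0.127 CPM over the 13 libraries, and MPO, a granule enzyme made by neutrophil precursors, averaged 0.0116 CPM with 0 counts in 8 libraries. SLC4A1, the red cell anion exchanger, averaged 0.00417 CPM with 0 counts in 10 libraries. S100A9 and the globins other than HBM that were looked for, HBB among them, were not found under their symbols in the count table. They were therefore not analysed here, and whether they stand there under an identifier alone was not examined.

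S100A8 (ENSCAFG00000017557) was measured in every library with at least 946 counts. In insulin libraries it had 18.5, 27 and 55.1 CPM in samples 1, 2 and 3 of dog 1, and 29.0, 25.2 and 50.7 CPM in those of dog 2. It had 24.7 and 22.8 CPM in samples 1 and 2 of dog 3, and 21.3 and 35.8 CPM in those of dog 4. In basal libraries it had 37.8, 66.7 and 24.2 CPM in dogs 2, 3 and 4. The groups overlapped: the highest library was the basal one of dog 3, followed by the sample 3 libraries of dogs 1 and 2, and the basal library of dog 4 lay among the lower insulin libraries.

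S100A12 (ENSCAFG00000023324) had 3.07, 3.84 and 6.41 CPM in samples 1, 2 and 3 of dog 1 under insulin, and 0.722, 0.329 and 1.04 CPM in those of dog 2. Samples 1 and 2 had 0.650 and 1.04 CPM in dog 3, and 1.62 and 1.89 CPM in dog 4. Its basal libraries had 1.04, 2.46 and 3.58 CPM in dogs 2, 3 and 4. Within dogs 3 and 4 the basal library was the highest, in dog 2 the basal and sample 3 libraries were level, and the 3 libraries of dog 1 and the basal library of dog 4 were the 4 highest.

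CSF3R (ENSCAFG00000003376) had 14 to 217 counts per library. Under insulin it had 0.817, 1.88 and 1.90 CPM in samples 1, 2 and 3 of dog 1, and 1.39, 0.256 and 0.941 CPM in those of dog 2. Samples 1 and 2 had 0.316 and 0.910 CPM in dog 3, and 0.585 and 0.774 CPM in dog 4. In basal libraries CSF3R had 1.16, 3.20 and 1.87 CPM in dogs 2, 3 and 4. The basal library of dog 3 was the highest of all 13, while the highest insulin libraries, samples 2 and 3 of dog 1, were level with the basal library of dog 4, so the groups overlapped.

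ALAS2 (ENSCAFG00000014308) had 17 to 137 counts per library. Under insulin it had 0.408, 0.813 and 1.33 CPM in samples 1, 2 and 3 of dog 1, and 1.04, 0.311 and 1.23 CPM in those of dog 2. Samples 1 and 2 had 0.316 and 0.390 CPM in dog 3, and 0.405 and 0.412 CPM in dog 4. Its basal libraries had 0.958, 2.02 and 2.63 CPM in dogs 2, 3 and 4. The basal libraries of dogs 3 and 4 were above all 10 insulin libraries, and that of dog 2 lay below 3 of them.

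HBM (ENSCAFG00000029224) was close to the limit of detection, with 1 to 38 counts per library and under 3 counts in 4 libraries. Under insulin it had 6, 16 and 23 counts in samples 1, 2 and 3 of dog 1, and 22, 1 and 1 counts in those of dog 2. Samples 1 and 2 had 1 and 4 counts in dog 3, and 2 and 9 counts in dog 4. In basal libraries it had 11, 19 and 38 counts in dogs 2, 3 and 4. As HBM belongs to a family of similar genes, its counts also depend on how reads shared with other globins were assigned, which is not given in the sources used here.

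GYPC (ENSCAFG00000030972) and SLC25A37 (ENSCAFG00000009114) varied less between libraries. GYPC ranged from 23.7 to 38.7 CPM over the insulin libraries (median 29.4) and had 34.2, 24.9 and 20.2 CPM in the basal libraries of dogs 2, 3 and 4. SLC25A37 ranged from 8.89 to 14.4 CPM over the insulin libraries (median 11.7) and had 10.3, 10.5 and 11.0 CPM in the basal ones. The basal libraries lay inside the insulin range for both transcripts, except that of dog 4 for GYPC, which lay below it.

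**Figure D1:**
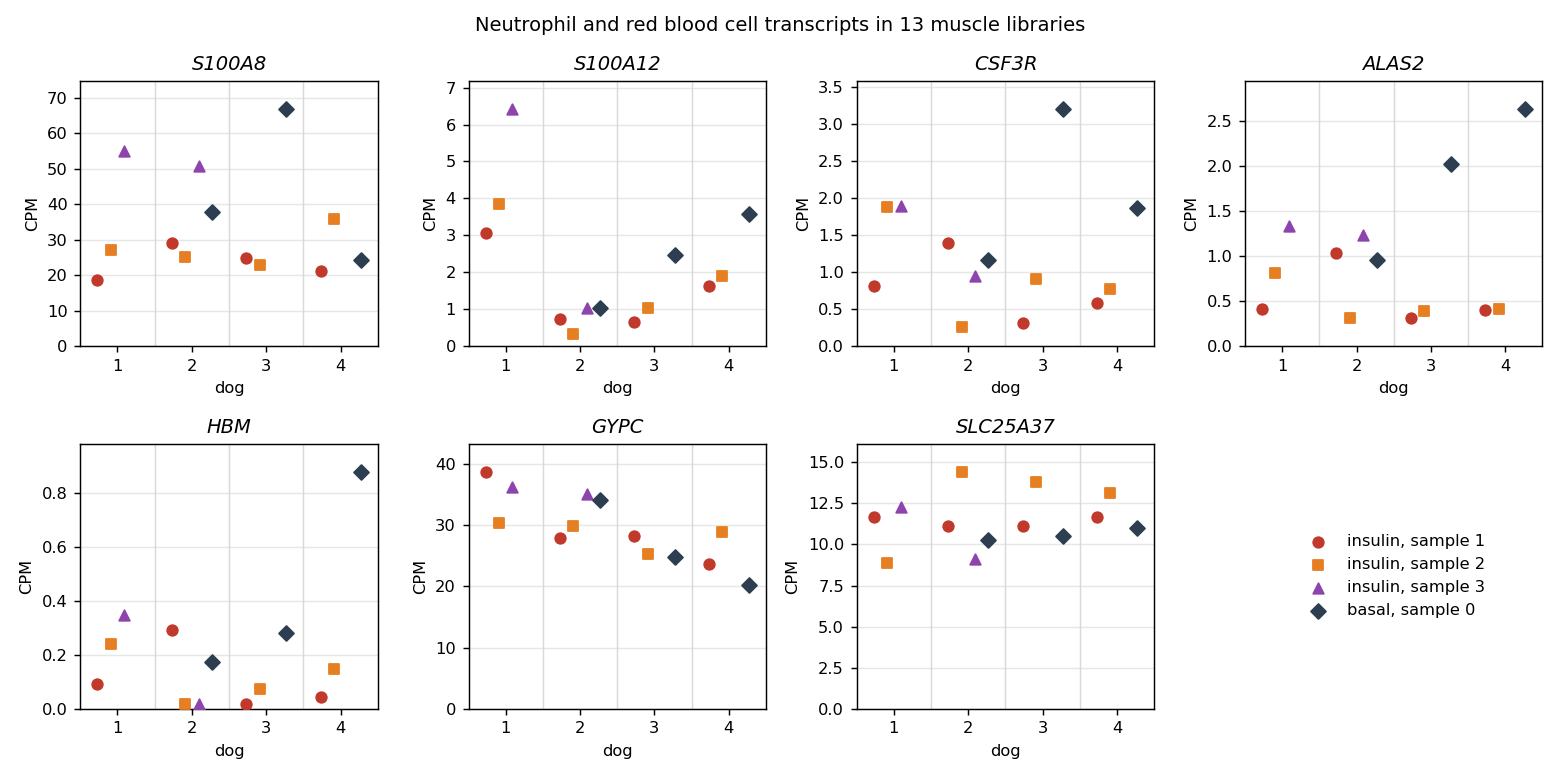
Level of each of the 7 transcripts in CPM (vertical axis, from 0) in each of 13 libraries, by dog (horizontal axis), with insulin samples 1, 2 and 3 to the left of the basal sample 0 of the same dog and 1 symbol per library. In dogs 3 and 4 the basal library is the highest for S100A12, CSF3R, ALAS2 and HBM, in dog 2 the libraries are mixed, and GYPC and SLC25A37 vary little.

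Insulin against basal compared the stimulation named in the labels, with the dog as a block. S100A12, CSF3R, ALAS2 and HBM had lower mean levels in insulin than in basal libraries, by log2 fold changes between -1.05 and -2.16, and none of them passed the threshold over all genes. S100A8 also had a lower mean, and GYPC and SLC25A37 had slightly higher ones. ALAS2 averaged 0.666 ± 0.400 CPM in insulin libraries (SD, n = 10) and 1.87 ± 0.848 CPM in basal libraries (n = 3), a log2 fold change of -1.89 ± 0.54 (SE; edgeR adjusted p = 0.430). HBM averaged 0.129 ± 0.123 CPM in insulin and 0.444 ± 0.380 CPM in basal libraries (-2.16 ± 0.86, edgeR adjusted p = 0.975). CSF3R averaged 0.977 ± 0.579 CPM in insulin and 2.08 ± 1.04 CPM in basal libraries (-1.46 ± 0.51, edgeR adjusted p = 0.808).

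S100A12 averaged 2.06 ± 1.89 CPM in insulin and 2.36 ± 1.27 CPM in basal libraries. Dog 1, with the highest mean level, had no basal library. With the dog as a block its log2 fold change was -1.05 ± 0.35 (edgeR adjusted p = 0.724), and without the block it was -0.19 ± 0.68. S100A8 averaged 31.0 ± 12.5 CPM in insulin and 42.9 ± 21.7 CPM in basal libraries (-0.50 ± 0.37, edgeR adjusted p = 1). GYPC averaged 30.5 ± 4.86 CPM in insulin and 26.4 ± 7.14 CPM in basal libraries (0.10 ± 0.15), and SLC25A37 averaged 11.7 ± 1.81 CPM in insulin and 10.6 ± 0.327 CPM in basal libraries (0.19 ± 0.18), both with an edgeR adjusted p of 1. The standard errors of these 2 transcripts were the smallest of the 7.

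In all, edgeR's quasi-likelihood test called 0 of the 7 transcripts, where it called 20 of 14629 genes (0.137%). At an unadjusted p under 0.05, 4 of the 7 were lower (S100A12, CSF3R, ALAS2 and HBM), against 2.44% of all genes. The 7 were chosen with earlier results of these data known, so shares given here and below describe them and are not a test. These 4 were set against the same 3 basal libraries and were correlated, so they are not separate pieces of support. The median log2 fold change of the 7 was -1.05, and that of all genes tested was -0.0013. DESeq2 called 1 of the 7, ALAS2, with a log2 fold change of -1.91 (adjusted p = 0.0444), and 0.711% of all genes. Without the filter on low counts edgeR called 2, ALAS2 (adjusted p = 0.00358) and CSF3R (adjusted p = 0.0322), and 0.555% of the 25207 genes then tested. Without the basal library of dog 3 the log2 fold change of S100A8 was 0.05, and without that of dog 4 it was -0.83. Without the basal library of dog 4 GYPC was at -0.03, ALAS2 at -1.42 and HBM at -1.56, while without the basal library of dog 2 ALAS2 was at -2.60. CSF3R was at -0.93 without the basal library of dog 3, and S100A12 at -0.79. None of the values with a library left out passed the threshold.

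Set within each dog, the same libraries show where the differences lay. The mean of a dog's insulin libraries was below its own basal library in all 3 dogs for S100A12, CSF3R, ALAS2 and HBM, which is 4 of 7 transcripts, against 13.5% of all genes tested. SLC25A37 was above basal in all 3 dogs, 1 of 7 against 11.4% of genes. For ALAS2 the mean difference in log2 CPM was -0.35 in dog 2, -2.42 in dog 3 and -2.59 in dog 4. CSF3R differed by -0.70, -2.49 and -1.43 in dogs 2, 3 and 4. S100A8 differed by -0.18 in dog 2, -1.49 in dog 3 and 0.19 in dog 4. In dog 2 the basal levels of CSF3R and ALAS2 were the lowest of the 3 basal libraries. At least 6 of the 7 insulin libraries of dogs 2, 3 and 4 were below their own basal library for S100A12, CSF3R and HBM, 3 of 7 transcripts against 11.1% of genes, and all 7 were for 0 of 7 transcripts against 3.44% of genes.

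Insulin samples 1 and 2 were each compared with the same 3 basal libraries. For sample 1 the log2 fold changes were -0.79 ± 0.31 for S100A8, -1.20 ± 0.34 for S100A12 and -1.55 ± 0.65 for CSF3R. ALAS2 had -1.89 ± 0.57 and HBM -2.01 ± 1.13, while GYPC had 0.10 ± 0.18 and SLC25A37 0.13 ± 0.21. edgeR called 0 of the 7 and 0% of all genes. At an unadjusted p under 0.05, 4 of the 7 were lower against 1.56% of all genes. DESeq2 called 0 of the 7, and 40 genes in all. The lowest adjusted p was 0.898 for S100A12. With 1 library left out, HBM ranged from -4.18 (without sample 1 of dog 2) to -1.32 (without sample 1 of dog 4), and CSF3R from -2.46 (without sample 1 of dog 2) to -1.01 (without sample 1 of dog 3). S100A8 ranged from -1.14 (without the basal library of dog 4) to -0.31 (without that of dog 3). S100A8 and S100A12 were below basal in all 3 dogs, 2 of 7 transcripts against 10.8% of genes, whereas CSF3R, ALAS2 and HBM were above basal in dog 2 by 0.25, 0.12 and 0.67 on the log2 CPM scale. SLC25A37 was above basal in all 3 dogs, 1 of 7 against 10.5% of genes.

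For sample 2 the log2 fold changes were -0.51 ± 0.31 for S100A8, -1.15 ± 0.34 for S100A12 and -1.47 ± 0.64 for CSF3R. ALAS2 had -2.10 ± 0.58, HBM -2.28 ± 1.09, GYPC 0.07 ± 0.18 and SLC25A37 0.26 ± 0.21. edgeR called 0 of the 7 and 0.0479% of all genes. At an unadjusted p under 0.05, 3 of the 7 were lower against 2.95% of all genes, and DESeq2 called 1, ALAS2 (adjusted p = 0.0428), and 0.519% of all genes. S100A12, CSF3R, ALAS2 and HBM were below basal in all 3 dogs, 4 of 7 against 11.8% of genes, and SLC25A37 was above basal in all 3, 1 of 7 against 12.1% of genes. In dog 2 this included the lowest values of S100A12, CSF3R and ALAS2 among the 13 libraries, while SLC25A37 was at its highest in the same library. With 1 library left out, S100A8 ranged from -0.90 (without the basal library of dog 4) to -0.0666 (without that of dog 3), and CSF3R was at -0.89 without the basal library of dog 3.

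Insulin sample 2 against insulin sample 1 was the comparison with all 4 dogs on both sides. S100A8 averaged 27.7 ± 5.66 CPM in sample 2 and 23.4 ± 4.54 CPM in sample 1 (SD, n = 4 each), a log2 fold change of 0.27 ± 0.28. CSF3R averaged 0.955 ± 0.679 CPM in sample 2 and 0.777 ± 0.457 CPM in sample 1 (0.08 ± 0.61), and ALAS2 0.481 ± 0.225 CPM in sample 2 and 0.543 ± 0.336 CPM in sample 1 (-0.21 ± 0.52). The other 4 transcripts had log2 fold changes between -0.27 (HBM, ± 1.09) and 0.13 (SLC25A37, ± 0.19). edgeR called 0 of the 7 and 0% of all genes, and 0 of the 7 had an unadjusted p under 0.05 against 3.38% of all genes. DESeq2 called 0 of the 7, and 0 genes in all. The standard errors of CSF3R, ALAS2 and HBM were 0.61, 0.52 and 1.09.

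Insulin sample 3, from dogs 1 and 2 alone, was set against samples 1 and 2. S100A8 averaged 52.9 ± 3.1 CPM in sample 3 (n = 2) and 25.5 ± 5.28 CPM in samples 1 and 2 (n = 8). Its log2 fold change was 1.11 ± 0.32 (edgeR adjusted p = 0.999). S100A12 had 0.97 ± 0.35 and ALAS2 1.18 ± 0.56, and CSF3R 0.47 ± 0.66. HBM had -0.14 ± 1.16, GYPC 0.12 ± 0.19 and SLC25A37 -0.10 ± 0.23. With 1 library left out, CSF3R ranged from 0.23 (without sample 2 of dog 2) to 1.30 (without sample 1 of dog 2), and ALAS2 was at 1.84 without sample 1 of dog 2. HBM ranged from -2.61 (without sample 3 of dog 1) to 1.06 (without sample 3 of dog 2). edgeR called 0 of the 7 and 0% of all genes. S100A8 and S100A12 had an unadjusted p under 0.05 and were higher, 2 of 7 against 2.38% of all genes. DESeq2 called 0 of the 7, and 2 genes in all. S100A8, S100A12 and ALAS2 were higher in sample 3 than in samples 1 and 2 of the same dog in both dogs, 3 of 7 transcripts against 9.43% of genes. Between the same libraries the median log2 fold change was 0.79 for 7 mast cell and eosinophil genes, 0.69 for 13 monocyte and macrophage genes, 0.47 for 24 neutrophil genes and 0.30 for 11 lymphocyte genes, against -0.02 for all genes. It was -0.44 for 11 endothelial genes, -0.21 for 13 heme synthesis genes and -0.08 for 23 red blood cell genes, of which ALAS2 is one and 14 were below 0. The platelet, keratinocyte and muscle fibre medians were -0.08, 0.08 and 0.06. Many of the listed genes had low counts. A mean of at least 1 CPM was reached by 3 of 10 mast cell and eosinophil genes found and 8 of 14 monocyte and macrophage genes. It was reached by 11 of 32 neutrophil genes and 1 of 17 lymphocyte genes. The part of the other cells in the result was not tested.

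**Figure D2:**
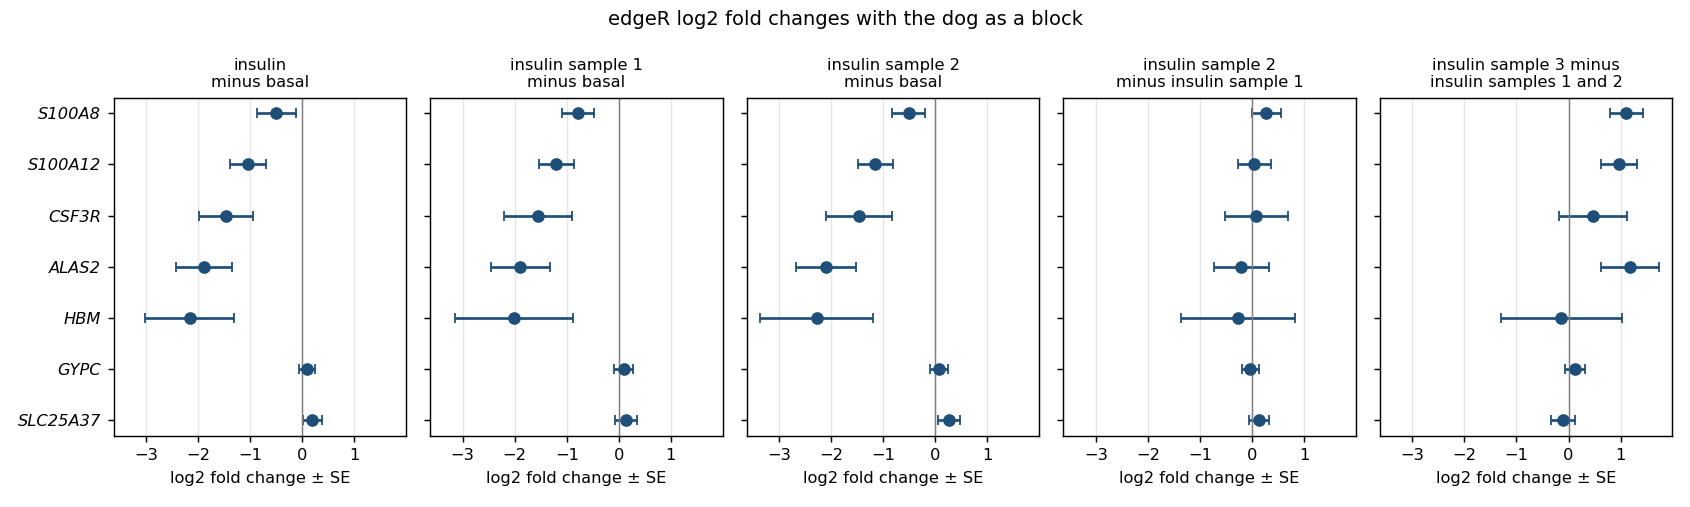
Log2 fold change (points, with bars of 1 SE) of each transcript in 5 comparisons, from edgeR fits over all genes with the dog as a block. Against basal the points of S100A12, CSF3R, ALAS2 and HBM lie between -1.05 and -2.28, those of GYPC and SLC25A37 lie near 0, and no value passed the threshold.

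The level of S100A12 differed among the dogs, and the other 6 transcripts did not pass this test. In a test of differences among the 4 dogs, with sample number in the model, edgeR called S100A12 (F = 23.0, adjusted p = 0.00626). This was 1 of 7 transcripts, and 458 of 14629 genes (3.13%) were called. Mean levels were 4.44 CPM in dog 1, 0.783 CPM in dog 2, 1.38 CPM in dog 3 and 2.36 CPM in dog 4. The lowest library of dog 1 (3.07 CPM) was above all libraries of dogs 2 and 3, and the basal library of dog 4 (3.58 CPM) lay inside the range of dog 1. S100A12 kept its call in each of 13 fits that dropped 1 library (edgeR adjusted p from 0.00759 to 0.0344) and in the 10 insulin libraries alone (adjusted p = 0.0356). The adjusted p was 0.868 for S100A8, 0.726 for CSF3R, 0.932 for ALAS2, 0.703 for HBM, 0.465 for GYPC and 0.969 for SLC25A37. Libraries of a dog are repeat biopsies, and anything shared by the handling of 1 dog's samples cannot be told apart from the dog.

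S100A12 and S100A8 lie next to each other in the RefSeq annotation of the dog (assembly UU_Cfam_GSD_1.0), followed by S100A9, and both are abundant in neutrophils. Their ratio does not depend on library scaling, and it was computed after the values were seen. For every 100 S100A8 counts dog 1 had 16.6, 14.2 and 11.6 S100A12 counts in insulin samples 1, 2 and 3. Dog 4 had 7.61 and 5.29 in insulin samples 1 and 2, and 14.8 in its basal library. Dog 3 had 2.63 and 4.56 in insulin samples 1 and 2, and 3.69 in its basal library. Dog 2 had 2.48, 1.30 and 2.06 in insulin samples 1, 2 and 3, and 2.74 in its basal library. All libraries of dogs 1 and 4 were above all libraries of dogs 2 and 3. The ratio was lower under insulin than in basal in every pair of libraries of dogs 2 and 4, and in dog 3 sample 2 was above basal.

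**Figure D3:**
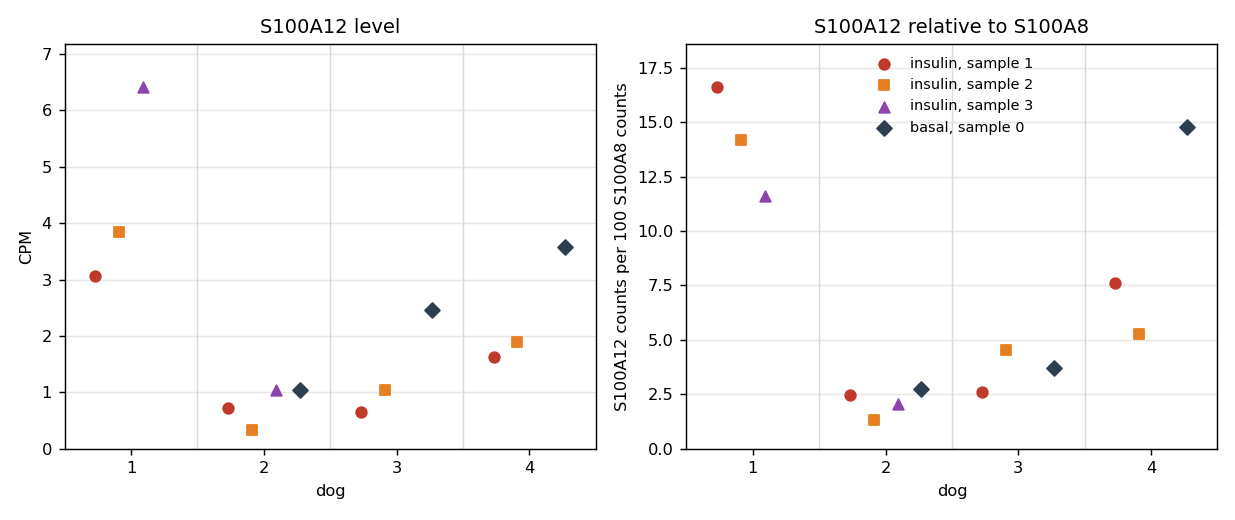
Left, S100A12 in CPM; right, S100A12 counts per 100 S100A8 counts; both by dog (horizontal axis) with 1 symbol per library and the insulin samples left of the basal sample. The ratio lies between 5.29 and 16.6 in dogs 1 and 4 and between 1.30 and 4.56 in dogs 2 and 3.

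Across the 13 libraries S100A12, CSF3R, ALAS2 and HBM had positive r with each other, and S100A8 had values inside their range with ALAS2 and CSF3R. Pearson's r of log2 CPM was 0.84 between CSF3R and ALAS2, 0.82 between CSF3R and HBM, 0.75 between ALAS2 and HBM and 0.71 between S100A12 and CSF3R. Between S100A12 and HBM r was 0.66, and between S100A12 and ALAS2 it was 0.50. These values are descriptions over 13 libraries that share dogs, sample numbers and a library scaling. With the means of dog and sample number removed, r was 0.84 between CSF3R and ALAS2, 0.98 between S100A12 and CSF3R, and 0.80 between ALAS2 and HBM. It was then 0.22 between S100A8 and ALAS2, and -0.73 between ALAS2 and GYPC, where it had been -0.20. Removing these means from 13 libraries leaves few degrees of freedom, so such values are uncertain. With the means left in, S100A8 had r of 0.60 with ALAS2 and 0.54 with CSF3R, and 0.23 with S100A12. GYPC had r between -0.30 and 0.22 with the other 6 transcripts, and SLC25A37 between -0.53 and -0.13. GYPC and SLC25A37 thus had negative r with ALAS2 and HBM, the red cell transcripts they are grouped with.

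**Figure D4:**
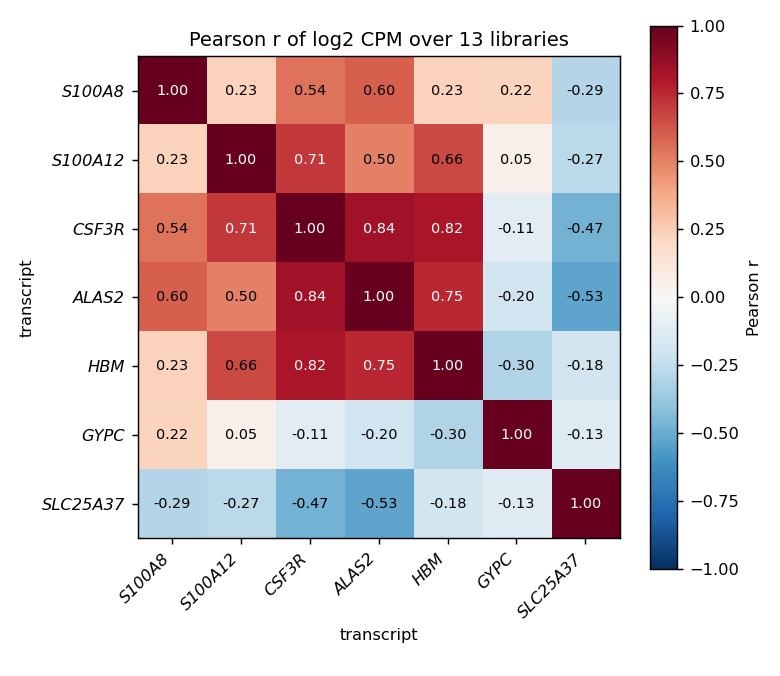
Pearson's r of log2 CPM between each pair of the 7 transcripts over 13 libraries (colour scale from -1 to 1, value in each cell). S100A12, CSF3R, ALAS2 and HBM have r between 0.50 and 0.84 with each other. S100A8 has r of 0.60 with ALAS2 and 0.54 with CSF3R, and GYPC and SLC25A37 have r of 0.22 or less with all others.

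The genes most alike in pattern were the 3 of highest Pearson's r of log2 CPM over the 13 libraries, out of 9305 or 9306 other named genes with a mean of at least 1 CPM. ALAS2 was most like PPBP, a chemokine of platelet granules (r = 0.915), then RGS2 and CSF3R. PPBP had 0.106, 0.978 and 0.724 CPM in insulin samples 1, 2 and 3 of dog 1, and 1.48, 0.0731 and 1.85 CPM in those of dog 2. It had 0.433 and 0.242 CPM in insulin samples 1 and 2 of dog 3, and 0.337 and 0.329 CPM in those of dog 4, against 1.41, 8.48 and 5.47 CPM in the basal libraries of dogs 2, 3 and 4. Its basal libraries of dogs 3 and 4 were thus above all insulin libraries, as those of ALAS2 were. PPBP was picked for its likeness to ALAS2 over these same libraries, so this is not a separate result. The log2 fold change of PPBP in insulin against basal was -3.38 ± 0.93 (edgeR adjusted p = 0.388).

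CSF3R was most like the DNA repair nuclease DCLRE1C (r = 0.811), PPBP (r = 0.773) and HCLS1 (r = 0.773), a signalling protein of blood cells. S100A12 was most like ZNF175 (r = 0.897), SRGN (r = 0.848), a proteoglycan of blood cell granules, and ADAT1 (r = 0.844). HBM was most like SPSB1 (r = 0.829), CSF3R and INTS7. S100A8 was most like ADIRF (r = 0.921), VIM (r = 0.908), the intermediate filament of mesenchymal cells, and RPL3 (r = 0.884). GYPC was most like LGALS1 (r = 0.897), UBL5 and SLC25A43, and SLC25A37 was most like ZNF189 (r = 0.865). With Spearman's rho in place of r, SRGN stayed among the nearest 3 for S100A12, DCLRE1C for CSF3R, PPBP and CSF3R for ALAS2, CSF3R for HBM and LGALS1 for GYPC. With dog and sample number means removed LGALS1 alone stayed.

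In insulin against basal most neutrophil genes had a log2 fold change below 0 and none passed the threshold. Of 40 listed genes 24 were tested, S100A8, S100A12 and CSF3R among them, and edgeR called 0. Of the 24, 0 were higher and 5 lower at an unadjusted p under 0.05 (S100A12, CSF3R, LTF and CXCR2 among them), where 2.44% of all genes were lower. DESeq2 called 0 of the 24, and 0.711% of all genes. The log2 fold change was below 0 for 20 of 24 and for 50.2% of all genes. Its median was -0.45, against -0.0013 over all genes. The list was chosen with earlier results of these data known, so these shares are a description. LTF, the lactoferrin of neutrophil granules, averaged 0.405 ± 0.304 CPM in insulin and 0.730 ± 0.170 CPM in basal libraries (-1.63 ± 0.62, edgeR adjusted p = 0.949). The more abundant genes of the list, which other cells express too, had small values: SERPINB1, a protease inhibitor, had 0.01 ± 0.22, the lysozyme LYZ -0.04 ± 0.23, the oxidase subunit CYBA -0.16 ± 0.34, and the adhesion molecule CEACAM1 -0.40 ± 0.29.

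Red blood cell genes were mixed. Of 44 listed genes 23 were tested and edgeR called 0. At an unadjusted p under 0.05, 0 were higher and 3 lower (ALAS2, HBM and DMTN), against the same 2.44% of all genes. DESeq2 called 1, ALAS2, and 0.711% of all genes. The median log2 fold change was -0.05, against -0.0013 over all genes. DMTN (dematin), which bundles actin in the red cell skeleton, averaged 0.188 ± 0.177 CPM in insulin and 0.456 ± 0.213 CPM in basal libraries (-1.77 ± 0.57, edgeR adjusted p = 0.655). Other genes of this list, which muscle expresses too, had log2 fold changes near 0. The skeleton proteins ANK1, SPTB and EPB41 had log2 fold changes of -0.05 ± 0.15, -0.20 ± 0.38 and -0.21 ± 0.22, FECH, the last enzyme of heme synthesis, had -0.04 ± 0.15, and the gene named CA2, a carbonic anhydrase, had -0.16 ± 0.38 at 3290 to 19700 CPM. FAM210B, a mitochondrial protein of erythroid differentiation, had 0.36 ± 0.17 (edgeR adjusted p = 1).

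Of 13 heme synthesis genes tested 0 were called by edgeR, against 0.137% of all genes. At an unadjusted p under 0.05, 0 were higher and 1 was lower (ALAS2), where 2.44% of all genes were lower. DESeq2 called 1, ALAS2, and 0.711% of all genes. The median log2 fold change of the 13 was 0.19, against -0.0013 over all genes. ALAS1, the form of the first enzyme that is made in all tissues, averaged 216 ± 55.3 CPM in insulin and 178 ± 29.4 CPM in basal libraries (0.24 ± 0.21, edgeR adjusted p = 1). TFRC, the transferrin receptor through which cells take up iron, varied widely. It had 203, 20 and 58.9 CPM in insulin samples 1, 2 and 3 of dog 1, and 116, 50.0 and 44.4 CPM in those of dog 2, against 66.6 CPM in dog 2's basal library. In dog 3 it had 198 and 310 CPM in insulin samples 1 and 2, against 5.50 CPM in the basal library. In dog 4 it had 2.63 and 3.39 CPM in insulin samples 1 and 2, against 7.27 CPM in the basal library. Dogs 3 and 4 thus went opposite ways, and the log2 fold change over dogs was 0.40 ± 0.97 (edgeR adjusted p = 1).

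Markers of other cells were set beside these values, and their part in the result was not tested. All 7 platelet genes tested had a log2 fold change below 0, with a median of -0.70, where 50.2% of all genes were below 0. The summed level of the 11 platelet genes found ranged from 5.65 to 16.8 CPM in insulin libraries (median 12.8). It was 11.4, 44.7 and 14.5 CPM in the basal libraries of dogs 2, 3 and 4, so the upper end came from dog 3 alone. Of 13 monocyte and macrophage genes tested 11 were below 0, with a median of -0.46, against the same 50.2% of all genes. The sum of the 14 found ranged from 12.8 to 75.0 CPM in insulin libraries (median 37.8). In the basal libraries of dogs 2, 3 and 4 the sum was 32.1, 86.1 and 18.7 CPM (median 32.1), so the upper end again came from dog 3 alone. Median log2 fold changes were 0.16 for lymphocyte genes, 0.13 for endothelial genes, 0.06 for mast cell and eosinophil genes and 0.05 for muscle fibre genes. Keratinocyte genes, of interest because keratinocytes can make S100A8, had a median log2 fold change of -0.32 over 5 tested genes. The sum of the 8 found ranged from 49.6 to 92.0 CPM in insulin and from 53.6 to 80.1 CPM in basal libraries. Nearly all of this sum was KRT10, TP63 and DSP, which averaged 34.4, 22.5 and 7.26 CPM. The other genes found averaged at most 0.157 CPM (PERP), and PKP1 had 0 counts in all 13 libraries. Among these KRT14, the keratin of the basal skin layer, had at most 0.201 CPM in a library and 0 counts in 3. In each of these lists edgeR called 0 genes in insulin against basal, where it called 0.137% of all genes. At an unadjusted p under 0.05 PPBP was lower among platelet genes, CD4 among lymphocyte genes and TP63 among keratinocyte genes. KIT was higher among mast cell and eosinophil genes, and 0 genes of the other lists passed. Of all genes 2.44% were lower at that level, and 603 of 14629 passed it in either direction. DESeq2 called 1 gene in these lists, PPBP, and 0.711% of all genes.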

How the data were processed

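Per the labels' protocols, total RNA from flash-frozen muscle was made into cDNA with a SMART-Seq kit and into libraries with Nextera XT, which does not mark strand, so reads of overlapping antisense genes cannot be told apart. The authors deposited raw read counts per gene, and beside them a normalized signal that equals the count divided by 1 size factor per library and was used only as a check. Bowtie 0.12.2 and the build CanFam3.1 are named per the submitters' processing notes, and no source used here gives their roles, the counting program or its handling of shared reads. The series' design text describes another organism and tissue and was not used.

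Counts were filtered with filterByExpr, scaled by TMM and tested with edgeR 4.0.16 (quasi-likelihood, robust) in R 4.3.3, with the dog as a block, Benjamini-Hochberg adjustment over 14629 genes and a threshold of 0.05. DESeq2 1.42.0 was an alternative, as were another scaling, no filter, no block, counts summed per dog, and leaving out each library or dog; a fit without the robust option was added after seeing the data. The procedure was tested on simulated counts with 200 changed genes. In insulin against basal it recovered 18% of genes changed 2-fold and 65.5% of those changed 4-fold. For 2-fold changes it recovered 5.5% in sample 1 against basal, 3% in sample 2 against basal and 18% in sample 2 against sample 1. For sample 3 and for differences among dogs it recovered 0% of 2-fold changes. Changes of that size were thus mostly missed. Log2 CPM used a prior count of 2. Depth, 45200416 to 81948641 counts per library, sets the counting error alone, and a floor of 3 counts covers no other error. The dog number in the labels pairs the libraries: deviations from the sample number means had a median r of 0.171 within dogs and -0.0658 between dogs. The biopsies are repeat samples of 4 dogs, so p-values partly measure the spread within dogs. No 2 libraries agreed within sampling noise.

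The genes named are the 7 transcripts, ALAS1 and TFRC, and from the neutrophil and the red blood cell lists the 6 with the highest mean CPM and the 4 with the lowest p in insulin against basal; others were named where a count of 5 or fewer fell outside this rule or a marker was checked. Some genes that these rules name are not reported here. The 7 transcripts and the lists were chosen with earlier results of these data known.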

Additional observations from a re-analysis of the deposited data

Results flagged for a closer look

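Among the 4 insulin sample 1 libraries, ALAS2 had 1.04 CPM in dog 2, while the other 3 lay between 0.316 and 0.408 CPM, a gap that passes Dixon's critical value for 4 samples. This was 1 of 21 groups tested, and chance gives about 1 in 20. The same library also had the highest HBM (0.294 CPM) and CSF3R (1.39 CPM) of the 4.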

How the results depend on the processing

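Depth limits HBM, which had 1 to 38 counts per library. Of 1168 values recomputed under the alternatives, 1043 kept their direction and their side of the threshold (counts within 1.5 times), 4 passed it newly, 72 moved and 49 reversed, and the cause was not tested. In insulin against basal 20 genes passed, against 140 without the filter (2 of the 7 transcripts, CSF3R at -1.46 and ALAS2 at -1.90), 104 with DESeq2 (1, ALAS2 at -1.91), 6 with no replicate block, 6 without dog 3, 4 without dog 4 and 3 with counts summed per dog; S100A8 was at 0.0534 without dog 3 and GYPC at -0.0196 without dog 4. For insulin sample 1 against basal 0 genes passed, against 4 with DESeq2 size factors, 16 without the filter, 40 with DESeq2, 5 without dog 1, 6 without dog 2 and 1 without dog 4. For sample 2 against basal 7 genes passed, against 28 without the filter, 73 with DESeq2 (ALAS2 among them, at -2.10), 0 with no replicate block, 13 without dog 1, and 1 without dog 3 or dog 4; S100A8 was at 0.0083 without dog 3 and GYPC at -0.13 without dog 4. The fits without the replicate block changed no call of the 7 transcripts.

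For sample 2 against sample 1, values that reversed were HBM at 0.0837 with no replicate block, S100A12 at -0.0655, CSF3R at -0.36 and GYPC at 0.0788 without dog 1, ALAS2 at 0.45 and HBM at 1.63 without dog 2, S100A12 at -0.11, CSF3R at -0.24 and GYPC at 0.0331 without dog 3, and S100A12 at -0.02 and CSF3R at -0.0348 without dog 4. For sample 3 against samples 1 and 2, DESeq2 passed 2 genes against 0, HBM was at 0.62 with no replicate block and 1.23 without dog 2, and SLC25A37 was at 0.26 without dog 2. Scaled to raw totals, the summed level of the 7 transcripts was 59.3 in place of 73.1 CPM in sample 2 of dog 1 and 130 in place of 110 CPM in the basal library of dog 3. Among dogs, 458 genes passed, against 793 without the filter and 184 in insulin libraries alone.

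Leaving out 1 library at a time gave 7 (without the basal library of dog 4) to 28 genes (without sample 2 of dog 1) in insulin against basal. It gave 0 to 8 genes for sample 1 and 0 to 12 for sample 2, both highest without the basal library of dog 2, and 193 (without sample 2 of dog 3) to 625 (without sample 2 of dog 1) among dogs. In insulin against basal S100A8 ranged from -0.83 to 0.0537 and GYPC from -0.0264 to 0.24; against basal GYPC ranged from -0.039 to 0.26 in sample 1 and from -0.11 to 0.23 in sample 2. For sample 2 against sample 1, S100A8 ranged from -0.0455 to 0.49, S100A12 from -0.16 to 0.30, CSF3R from -0.35 to 0.88, ALAS2 from -0.61 to 0.48, HBM from -0.99 to 1.62 and GYPC from -0.18 to 0.0668. For sample 3, HBM ranged from -2.61 to 1.06 and SLC25A37 from -0.47 to 0.25.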
